A study of Mus musculus with 2 samples.

Results

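Elavl1 to Elavl4, Nova1, Nova2, Ptbp1, Ptbp2, Mbnl1 and Mbnl2 encode RNA-binding proteins that regulate splicing, and they were examined here for peaks of the tagged repressor PARIS in the mouse hippocampus. A peak was counted for a gene where its symbol was the gene's in the authors' table, which assigns each peak to a nearby gene. By this rule 134 of the 99782 annotated peaks belonged to these 10 genes, and 9 of the 10 genes had at least 1 peak. Ptbp1 had none and counts as 0.

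The data come from CUT&Tag, in which an antibody directs a transposase to cut and tag the DNA around its target. Tissue was hippocampus of C57BL/6J mice with the genotype CamK-PARIS, and no treatment was given. The libraries were 1 with an antibody against FLAG, a peptide tag, to capture PARIS, and 1 with IgG, the negative control, from mice of the same genotype. PARIS, the product of mouse Zfp746, is a repressor of transcription with zinc fingers. The labels give no age or sex, no promoter or cell type for the transgene, and no number of animals or pooling. There was no library from mice without the transgene. With 1 library per antibody there is no replicate error, and no difference between antibodies was tested. The peaks are those of the anti-FLAG library, called by the authors with the IgG library as control. The IgG library has no file among those analysed here and the sequencing depth is unknown, so no background level can be printed beside a peak. All 95% intervals below cover counting error over peaks, windows or genes within this library.

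Each of these proteins binds short sequence elements in pre-mRNA and raises or lowers the use of nearby exons, and several also act on mRNA stability or translation. Elavl proteins bind U-rich and AU-rich RNA, and Elavl2, Elavl3 and Elavl4 are the members restricted mostly to neurons. Nova proteins act on exons of synaptic transcripts, Ptbp proteins bind pyrimidine tracts and hold back neuronal exons in other cells and in immature neurons, and Mbnl proteins drive the switch from fetal to adult exon use. CUT&Tag peaks at these genes locate signal on DNA and measure neither the RNA nor its splicing, so the labelled tissue could not be checked against expressed markers.

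The counts ranged from 0 to 28 peaks per gene. Mbnl2 had 28, Elavl2 26, Nova1 21, Mbnl1 15, Ptbp2 14, Elavl4 12, Nova2 11, Elavl3 5, Elavl1 2 and Ptbp1 0. The median was 13, against a median of 2 (quartiles 0 and 5) over 21911 protein-coding genes, of which 71.0% had at least 1 assigned peak. The 10 genes are long, with a median of 95.1 kb against 17.4 kb over all protein-coding genes. Over the 200 protein-coding genes nearest in length to each gene, the median ran from 1 assigned peak for Ptbp1 to 9 for Elavl4. Elavl1 and Ptbp1 were below the median for their length, and the other genes were above it. By family, the Elavl genes had 45 peaks, the Mbnl genes 43, the Nova genes 32 and Ptbp2 alone 14.

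A peak within 1 kb of a transcription start site (TSS), by the authors' distance from the region of maximum signal, was assigned to 9 of the 10 genes. Over all protein-coding genes the share was 41.6%, and it was 48.6% over the 12588 genes between the shortest and the longest of the 10 in length. That range holds many genes shorter than most of the 10. Over the 200 protein-coding genes nearest in length to each gene, the share ran from 36.5% for Ptbp1 to 67.5% for Elavl4. The TSS in that distance is that of any annotated transcript. When only the outermost 5′ end of the gene in GENCODE was taken, 5 of the 10 genes had a peak within 1 kb (Elavl1, Nova1, Nova2, Ptbp2 and Mbnl2), against 39.4% of all protein-coding genes. The near peaks of Elavl2, Elavl3, Elavl4 and Mbnl1 therefore lay at internal starts. Of the 15 near peaks, 11 were assigned to protein-coding transcripts, 2 to retained-intron transcripts and 2 to transcripts annotated for nonsense-mediated decay.

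Many peaks of this list are rectangles of constant height. A peak was called so where its total signal was at least 99% of its maximum signal times its width. The term signal means the authors' coverage, in units whose scaling the sources used here do not give. Of the 134 peaks, 88 were of constant height (65.7%, Wilson 95% interval 57.3 to 73.2), against 63.3% of all peaks with a gene symbol. Among the 15 near peaks 5 were of constant height (33.3%, 15.2 to 58.3), against 44.5% of all near peaks. When these were left out, 7 of the 10 genes kept a peak within 1 kb of a TSS, and Elavl3 and Ptbp2 lost theirs. The corresponding share of all protein-coding genes was 28.3%.

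**Figure D1:**
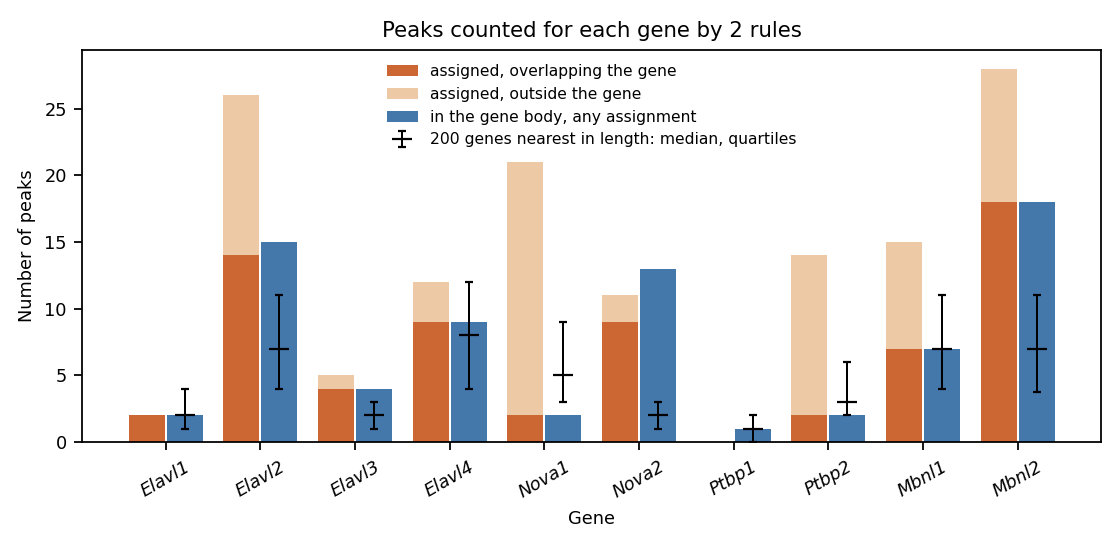
Peaks per gene for the 10 genes, drawn as bars starting at 0. For each gene, a bar gives the peaks assigned by the authors, split into those overlapping the gene and those outside it. Another bar gives the peaks in the gene body, whatever their assignment. Marks give the median and quartiles of gene-body peaks over the protein-coding genes nearest in length. Mbnl2, Elavl2 and Nova1 had 28, 26 and 21 assigned peaks, and Ptbp1 had 0.

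Sequences at the promoters with peaks are printed first. The 4 stretches that follow were chosen because their peaks lie at a promoter and reach the highest maximum signal of Nova2, Elavl2 and Mbnl1 near a TSS, with Mbnl2 for comparison. They are given 5′ to 3′ on the strand of the gene in GRCm38.p6 (the mm10 build), bases in annotated exons are left out, and capitals mark CpG dinucleotides. The first is the window at the region of maximum signal, and the others are stretches of RefSeq promoter windows, which run from 250 bases before to 50 bases after a start.
Nova2 upstream peak, chr7:18925359-18925558, + strand: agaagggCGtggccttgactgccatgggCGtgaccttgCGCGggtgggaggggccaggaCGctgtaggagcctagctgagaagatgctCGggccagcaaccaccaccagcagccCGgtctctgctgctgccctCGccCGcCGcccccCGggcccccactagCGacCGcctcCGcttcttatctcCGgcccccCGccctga
Elavl2 internal promoter, chr4:91376528-91376746, - strand: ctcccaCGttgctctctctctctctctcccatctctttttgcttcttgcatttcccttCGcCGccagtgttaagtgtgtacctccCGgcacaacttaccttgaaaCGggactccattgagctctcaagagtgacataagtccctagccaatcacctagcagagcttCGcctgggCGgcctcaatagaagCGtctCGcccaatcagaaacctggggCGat
Mbnl1 internal promoter, chr3:60501095-60501178, + strand: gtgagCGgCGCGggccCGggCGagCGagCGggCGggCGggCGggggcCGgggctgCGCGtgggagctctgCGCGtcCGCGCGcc
Mbnl2 promoter, chr14:120275419-120275651, + strand: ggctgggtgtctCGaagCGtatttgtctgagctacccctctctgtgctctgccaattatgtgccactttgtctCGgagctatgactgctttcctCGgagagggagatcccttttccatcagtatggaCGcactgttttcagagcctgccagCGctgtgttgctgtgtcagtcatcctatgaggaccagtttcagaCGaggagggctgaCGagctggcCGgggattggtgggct
The Nova2 window had 16 CpGs in 200 bases and a GC content of 71.0%. The Mbnl1 stretch had 18 CpGs in 84 bases at 88.1% GC. The Elavl2 stretch had 10 CpGs in 219 bases at 53.4% GC and the Mbnl2 stretch 9 in 233 bases at 55.4% GC. The Mbnl2 peak overlapped 113 bases of its promoter window, and its region of maximum signal lay upstream of the printed stretch, in a window with 3 CpGs in 200 bases at 44.5% GC. The maximum signals of the peaks that overlapped the 4 stretches were 556, 252, 250 and 121, in the order Nova2, Mbnl1, Elavl2 and Mbnl2.

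Elavl1 encodes HuR, the member of its family that is expressed in most cell types and is best known for stabilising mRNAs. The gene (ENSMUSG00000040028) lies at chr8:4285382-4325413 on the minus strand of mm10 and spans 40 kb. Its peak at chr8:4324777-4325538 was 762 bp wide and lay over the 5′ end. The region of maximum signal lay 0 bp from the start of a retained-intron transcript, with its middle 394 bp inside the gene. The peak reached a maximum signal of 196, above 90.82% of all peaks, and was not of constant height. Percentages of this kind, here and below, give peaks of equal maximum signal their mean rank, so slightly fewer peaks were strictly lower. The other peak, at chr8:4313152-4313393, had a constant height of 116 and lay 534 bp upstream of an internal TSS. Both of its peaks were therefore within 1 kb of an annotated start, and no peak was assigned to Elavl1 outside the gene.

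Elavl2 encodes HuB, a neuronal member, and was the Elavl gene with the most peaks. The gene (ENSMUSG00000008489) lies at chr4:91250763-91400785, minus strand, and spans 150.0 kb. Its 26 peaks had maximum signals from 17 to 250 with a median of 102, and 18 were of constant height. The 3 peaks within 1 kb of a TSS all had another shape, and all lay at internal starts. The highest, at chr4:91376413-91377052, was 640 bp wide and reached 250 (above 95.66% of peaks), and its region of maximum signal lay 381 bp upstream of a TSS. Its region of maximum signal was not the CpG-bearing stretch printed above but a window farther upstream, which had 7 CpGs in 200 bases at a GC content of 40%. The other near peaks were lower. The one at chr4:91371366-91372133 reached 59, at 61 bp from a TSS, and the one at chr4:91374986-91375993 reached 22, at 638 bp. The outermost 5′ end of the gene was 3887 bp from the nearest peak, a constant-height peak in an intron. Of the other peaks, 11 were intronic and 12 were distal intergenic, and 9 lay more than 100 kb from the assigned TSS. The farthest was 380124 bp away.

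Elavl3 encodes HuC, long used as a marker of neurons. The gene (ENSMUSG00000003410) lies at chr9:22015005-22052023, minus strand, and spans 37.0 kb. Its 5 peaks had maximum signals from 118 to 204 with a median of 143. The highest, at chr9:22037436-22038586, was 1151 bp wide and lay in intron 1 of 6, where it reached 204 (above 91.73% of peaks). The only peak within 1 kb of a TSS, at chr9:22026053-22026358, had a constant height of 118 and lay 17 bp from an internal start. No peak overlapped the RefSeq promoter window of Elavl3, although that window had 29 CpGs and 65.3% GC. The peak nearest to its 5′ end was 3486 bp away, at chr9:22055509-22055899, and lay within the neighbouring gene Zfp653. It reached 121.

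Elavl4 encodes HuD, a neuronal member linked to neurite growth and learning. The gene (ENSMUSG00000028546) lies at chr4:110203722-110351909, minus strand, and spans 148.2 kb. It had 12 peaks with maximum signals from 43 to 157 and a median of 90.5, of which 10 were of constant height. The highest, at chr4:110224541-110224791, had a constant height of 157 and lay 1393 bp upstream of an internal TSS. The nearest to a TSS, at chr4:110290921-110291016, was 96 bp wide, reached 142 and lay 70 bp upstream of an internal TSS, with its middle 60943 bp inside the gene. The stretch around its region of maximum signal is shown because, unlike the promoters above, it holds almost no CpG. A CA repeat fills part of its 5′ portion, mostly beyond the edge of the peak, and the region of maximum signal lies outside the repeat. Capitals mark its 1 CpG, and the strand is that of the gene.
Elavl4 internal start, chr4:110290938-110291066, - strand: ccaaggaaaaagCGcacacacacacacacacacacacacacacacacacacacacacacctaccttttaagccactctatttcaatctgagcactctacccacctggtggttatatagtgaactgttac
None of the 4 RefSeq promoter windows of Elavl4 overlapped a peak. The outermost 5′ end of Elavl4 was 42326 bp from the nearest peak, which was assigned to another gene, Agbl4. Among the 10 genes this distance was the longest.

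**Figure D2:**
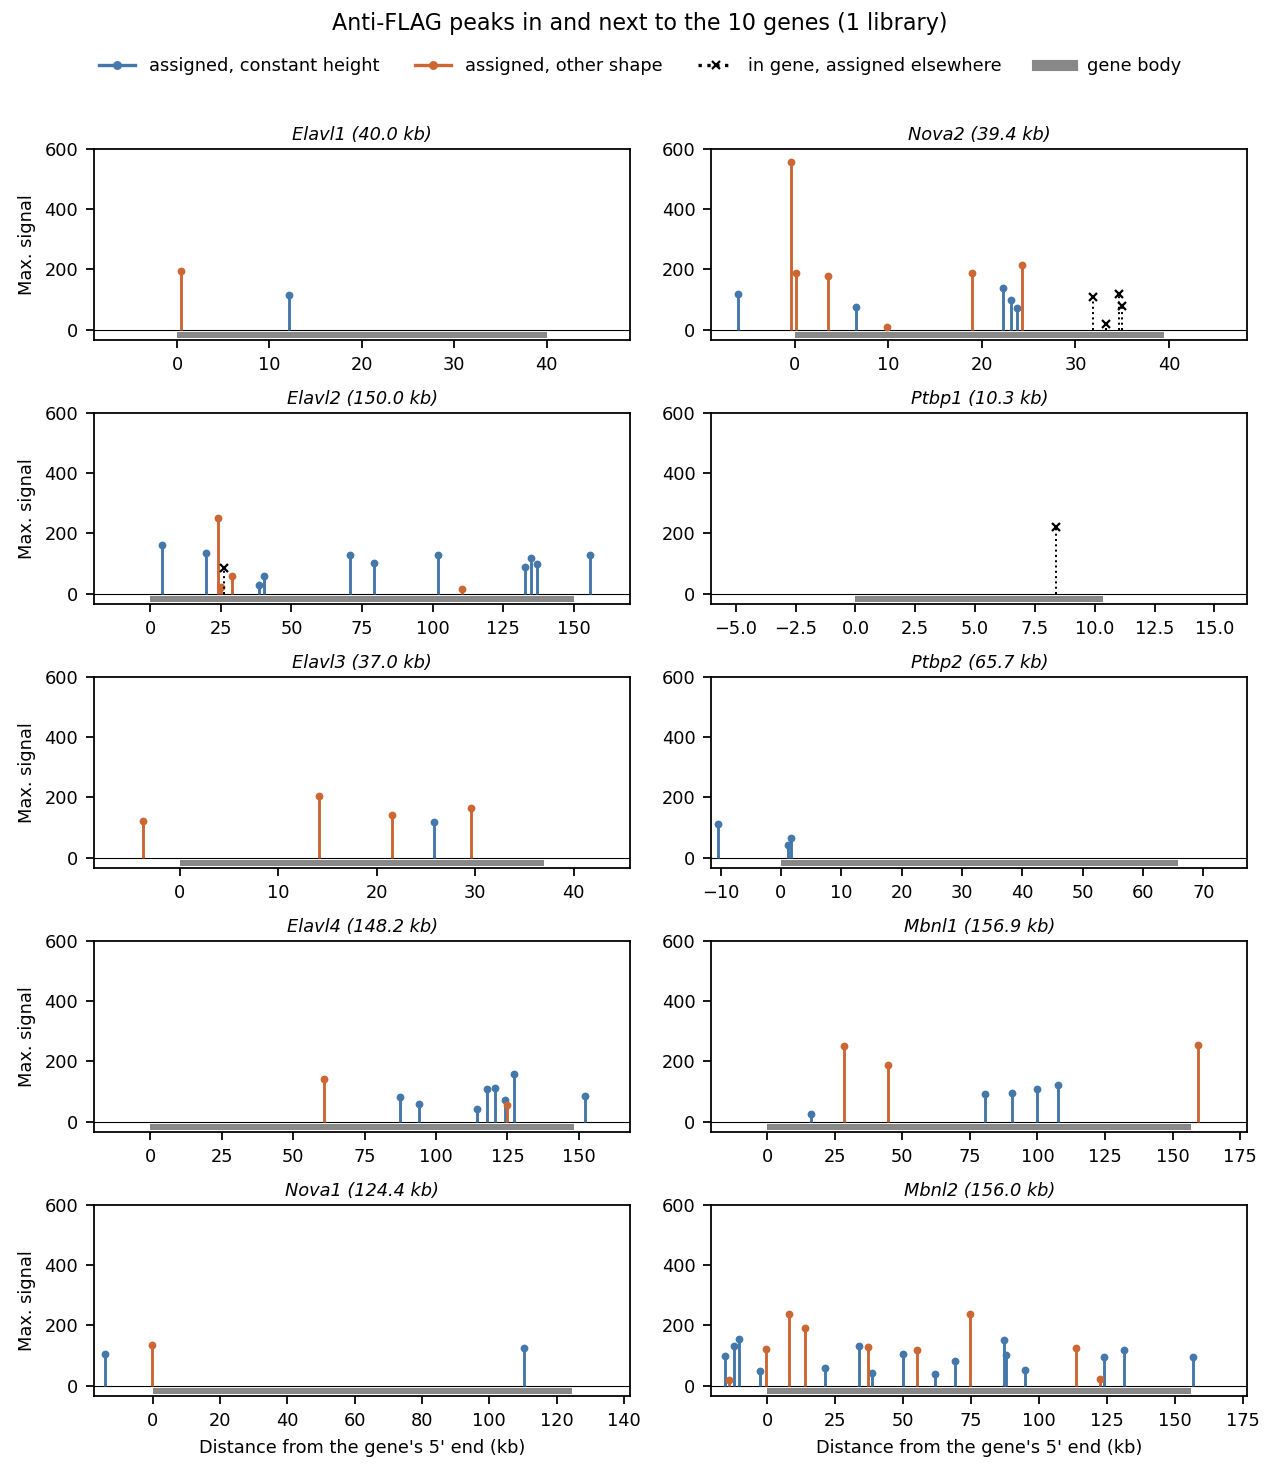
Peaks along each of the 10 genes, drawn against the distance from the gene's 5′ end in kb, with the height of each line giving the maximum signal. Blue lines are peaks of constant height, orange lines are other peaks, crosses are peaks in the gene that the authors assigned to another gene, and the bar marks the gene body. Peaks far outside a gene are not drawn. Nova2 shows its highest line, 556, just before the gene body, and Elavl4 shows no line at its 5′ end.

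Nova1 and Nova2 encode neuronal splicing factors first known as antigens of a paraneoplastic movement disorder, and Nova2 predominates in the cortex and hippocampus. Nova1 had 21 peaks and Nova2 11, but 19 of the 21 lay outside Nova1 and 9 of the 11 lay inside Nova2. When peaks were instead assigned by overlap with the gene or its 3 kb upstream, the order turned, with 2 for Nova1 and 14 for Nova2.

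Nova1 (ENSMUSG00000021047) lies at chr12:46694517-46818929, minus strand, and spans 124.4 kb. Its peak at chr12:46818771-46819675 was 905 bp wide, lay over the 5′ end, with its region of maximum signal 85 bp upstream of the TSS, and reached 136 (above 75.63% of peaks). It was not of constant height. The highest Nova1 peak, with a constant height of 165 at chr12:46303062-46303269, lay in intergenic DNA 417592 bp from the assigned TSS. Of the 21 peaks, 14 lay more than 100 kb from the TSS (66.7%), and the farthest was 940409 bp away. The window at the highest peak is shown as an example of this distal signal, with the same capitals and on the strand of Nova1. It had 3 CpGs in 200 bases at 34.5% GC.
Nova1 distal peak, chr12:46303065-46303264, - strand: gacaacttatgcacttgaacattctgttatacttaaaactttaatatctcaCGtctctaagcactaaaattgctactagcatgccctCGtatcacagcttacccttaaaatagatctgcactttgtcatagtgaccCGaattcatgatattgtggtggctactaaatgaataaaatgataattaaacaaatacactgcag

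Nova2 (ENSMUSG00000030411) lies at chr7:18925888-18965319, plus strand, and spans 39.4 kb. A pair of peaks stood at its promoter, separated by 49 bp, and together they spanned 1674 bp. The upstream one, at chr7:18924894-18925830, was 937 bp wide and reached 556, which ranked 188 of all peaks by maximum signal and 672 by total signal. Its region of maximum signal lay 421 bp upstream of the TSS, and its sequence is printed above. The other, at chr7:18925880-18926567, was 688 bp wide, reached 189 and lay over the start, with its region of maximum signal 46 bp into the gene. Neither was of constant height. The remaining peaks had maximum signals from 9 to 213. They included 8 in introns, and a peak at chr7:18943247-18944972 was 1726 bp wide, the widest of the 134. A further 4 peaks lay in the 3′ part of Nova2 but were assigned by the authors to the downstream gene Nanos2. They had maximum signals of 107, 18, 119 and 79, so the gene body of Nova2 held 13 peaks in all.

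**Figure D3:**
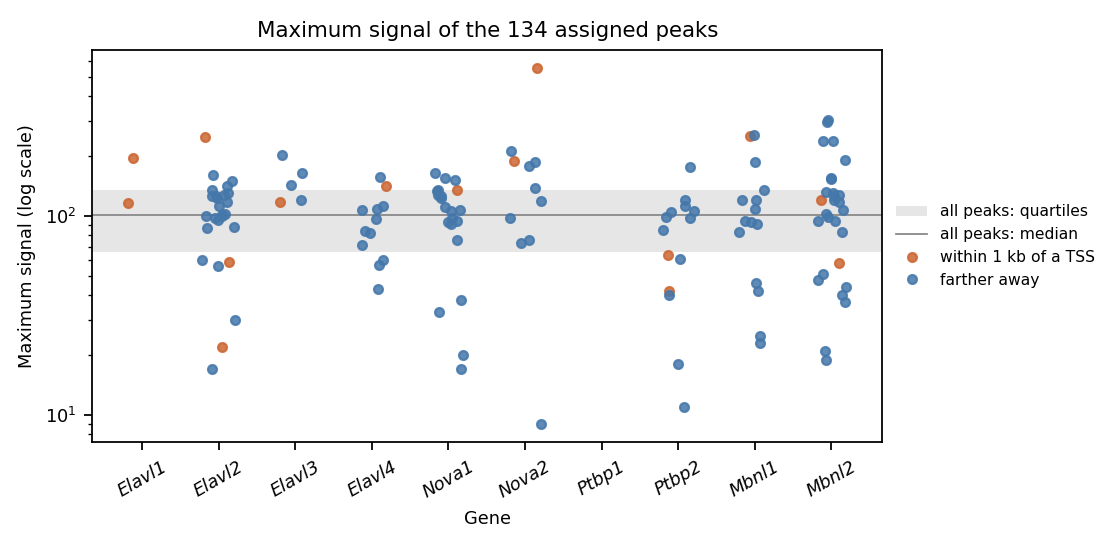
Maximum signal of each of the 134 peaks by gene, on a log scale. Orange points are peaks within 1 kb of a TSS and blue points lie farther away, with the median and quartiles of all peaks as a line and a band at 101, 66 and 135. The Nova2 promoter peak at 556 is the highest point. The near peaks below the band are those of Ptbp2 at 42 and 64, of Elavl2 at 22 and 59 and of Mbnl2 at 58.

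Ptbp1 encodes the polypyrimidine tract binding protein of non-neuronal cells and progenitors, and Ptbp2 its neuronal counterpart, which replaces it as neurons mature. Ptbp1 (ENSMUSG00000006498) lies at chr10:79854427-79864771, plus strand, and at 10.3 kb it was the shortest of the 10 genes. No peak was assigned to it. Its body did contain 1 peak, at chr10:79862378-79863030, which was 653 bp wide, was not of constant height and reached 222, above 93.58% of all peaks. The authors assigned this peak to Mir6910, a microRNA gene at chr10:79862587-79862652 that overlapped no exon of Ptbp1. The peak lay 8376 bp from the 5′ end of Ptbp1, and the nearest peak edge was 7951 bp from that end. The RefSeq promoter window of Ptbp1 held 22 CpGs at 58.3% GC and no peak.

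Ptbp2 (ENSMUSG00000028134) lies at chr3:119718742-119784466, minus strand, and spans 65.7 kb. It had 14 peaks with maximum signals from 11 to 176 and a median of 91.5. Both peaks within 1 kb of a TSS were low and of constant height. The one at chr3:119782996-119783586 was 591 bp wide and reached 42 (above 12.21% of peaks) at 0 bp from the start of a transcript annotated for nonsense-mediated decay. The one at chr3:119782638-119782907 reached 64 at 328 bp from a start. These 2 were the only peaks inside Ptbp2. The other 12 lay outside the gene, 9 of the 14 lay more than 100 kb from the TSS (64.3%), and 4 were in introns of Dpyd, a gene of pyrimidine breakdown. The highest Ptbp2 peak was one of these 4, at chr3:119325802-119325982 in intron 20 of 22 of Dpyd. It reached 176 at 398499 bp from the Ptbp2 TSS. For such peaks the assignment gives the nearest TSS and no evidence of a link to Ptbp2.

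Mbnl1 and Mbnl2 encode zinc-finger proteins that expanded CUG-repeat RNA traps in myotonic dystrophy, and Mbnl2 is the main member in the brain. Mbnl1 (ENSMUSG00000027763) lies at chr3:60472830-60629750, plus strand, and spans 156.9 kb. It had 15 peaks with maximum signals from 23 to 255 and a median of 95. Its peak at chr3:60500805-60501970 was 1166 bp wide, reached 252 (above 95.78% of peaks) and ranked 1045 by total signal. It lay 13 bp upstream of an internal TSS, on the stretch of 18 CpGs printed above. The RefSeq promoter window at the outermost 5′ end of Mbnl1 had 2 CpGs at 39.3% GC and no peak, and the nearest peak to that end was 15842 bp away, with a constant height of 25. The highest Mbnl1 peak, at chr3:60631998-60633120, reached 255 in intergenic DNA beyond the 3′ end, 8880 bp from the assigned TSS.

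Mbnl2 (ENSMUSG00000022139) lies at chr14:120275669-120431697, plus strand, and spans 156.0 kb. It had the most peaks of the 10 genes, 28, with maximum signals from 19 to 304 and a median of 112.5, and 11 of them were not of constant height. The peak nearest to a TSS, at chr14:120275068-120275531, was 464 bp wide, reached 121 (above 65.39% of peaks) and lay 369 bp upstream. A second near peak, at chr14:120296820-120296964, had a constant height of 58 and lay 710 bp upstream of an internal start. Higher peaks lay away from the promoter. The highest, at chr14:120169463-120169938, reached 304 (above 97.81% of peaks) at 106043 bp upstream, in an intron of the long non-coding gene Gm4681, and one at chr14:120211136-120212051 reached 299 at 63847 bp upstream. Inside the gene, 2 intronic peaks reached 238 each, at chr14:120283362-120283981 and chr14:120350188-120350836. By total signal they were unlike, ranking 4316 and 58705 of all peaks. The window at the highest peak is shown for contrast with the CpG-rich promoters. It had 3 CpGs in 200 bases at 55.0% GC, in capitals on the strand of Mbnl2.
Mbnl2 upstream peak, chr14:120169523-120169722, + strand: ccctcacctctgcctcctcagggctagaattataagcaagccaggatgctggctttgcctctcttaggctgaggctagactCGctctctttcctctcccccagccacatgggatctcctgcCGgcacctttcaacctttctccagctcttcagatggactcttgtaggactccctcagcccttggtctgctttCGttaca

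RefSeq gives 19 promoter windows for the 10 genes, and 11 of them overlapped a peak. The share was 29.5% over the 20150 windows of all protein-coding genes. Counted by gene, 7 of the 10 had such a window (Elavl1, Elavl2, Nova1, Nova2, Ptbp2, Mbnl1 and Mbnl2), against 31.2% of 16522 genes. The windows with a peak differed in base composition. Those of Elavl1, Mbnl1 and Ptbp2 had 39, 41 and 36 CpGs, while those of Nova1 and Mbnl2 had 14 and 10, around the median of 14 over all windows. That of Nova2 had 17, and those of Elavl2 with a peak had 18 to 27. The windows of Elavl4, with no peak, had 4 to 23 CpGs. Other windows with no peak were those of Elavl3 and Ptbp1, with 29 and 22. Windows with no peak at the outer 5′ ends of Elavl2 and Mbnl1 had 10 and 2.

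The peaks in each gene body, whatever gene the authors assigned them to, were set against length and chromosome. Counts went with length. The 200 protein-coding genes nearest to Ptbp1 in length had a median of 1 peak and the 200 nearest to Mbnl1 a median of 7. The 10 bodies held 73 peaks (28 of another shape than constant height), with a median of 5.5 per gene against 1 (quartiles 0 and 3) over all protein-coding genes. Nova2 had the highest density, 32.97 peaks per 100 kb (Poisson 95% interval 17.55 to 56.38), which was 7.43 times the density of its chromosome. Among the 200 protein-coding genes nearest to it in length the median was 2 peaks, and the 13 of Nova2 stood at percentile 99. Some of the 13 lay close together. With peaks within 1 kb merged, Nova2 went from 13 to 7, while all 10 bodies went from 73 to 60. Densities, intervals and percentiles were not recomputed for merged peaks. Mbnl2 followed with 11.54 per 100 kb (6.84 to 18.23), 3.42 times its chromosome, and its 18 peaks stood at percentile 92.0 of genes of like length, whose median was 7. The density was 10.81 (2.94 to 27.67) for Elavl3 and 10 (5.6 to 16.49) for Elavl2, at percentiles 81.5 and 88.5. It was 9.67 (0.24 to 53.86) for Ptbp1, from a single peak, 6.07 (2.78 to 11.53) for Elavl4, 5.0 (0.61 to 18.05) for Elavl1 and 4.46 (1.79 to 9.19) for Mbnl1. These 4 genes stood at percentiles from 47.0 to 59.0. Ptbp2, at 3.04 (0.37 to 10.99), and Nova1, at 1.61 (0.19 to 5.81), were lowest, at percentiles 31.5 and 15.0.

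Neighbours in this order did not separate. In 0 of the 9 neighbouring pairs were the intervals apart, and in 6 of all 45 pairs they were. Nova2 was above Elavl2, Elavl4, Mbnl1, Ptbp2 and Nova1, by 3.3, 5.4, 7.4, 10.8 and 20.5 times, and Mbnl2 was above Nova1 by 7.2 times. These intervals count each peak as independent, which neighbouring peaks of Nova2 may not be. Whether its intervals stay apart with its merged count of 7 was not tested. The density was above that of the chromosome in 8 of the 10 genes, against 49.9% of all protein-coding genes. The exceptions were Ptbp2 at 0.98 times and Nova1 at 0.43 times. The 49.9% covers genes of every length, and no such share was computed for genes of like length. Of the 8, Elavl1, Mbnl1, Elavl4 and Ptbp1 stood only at percentiles 47.0 to 59.0 of genes of like length. Nova2, Mbnl2, Elavl2 and Elavl3 stood at 81.5 to 99.

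**Figure D4:**
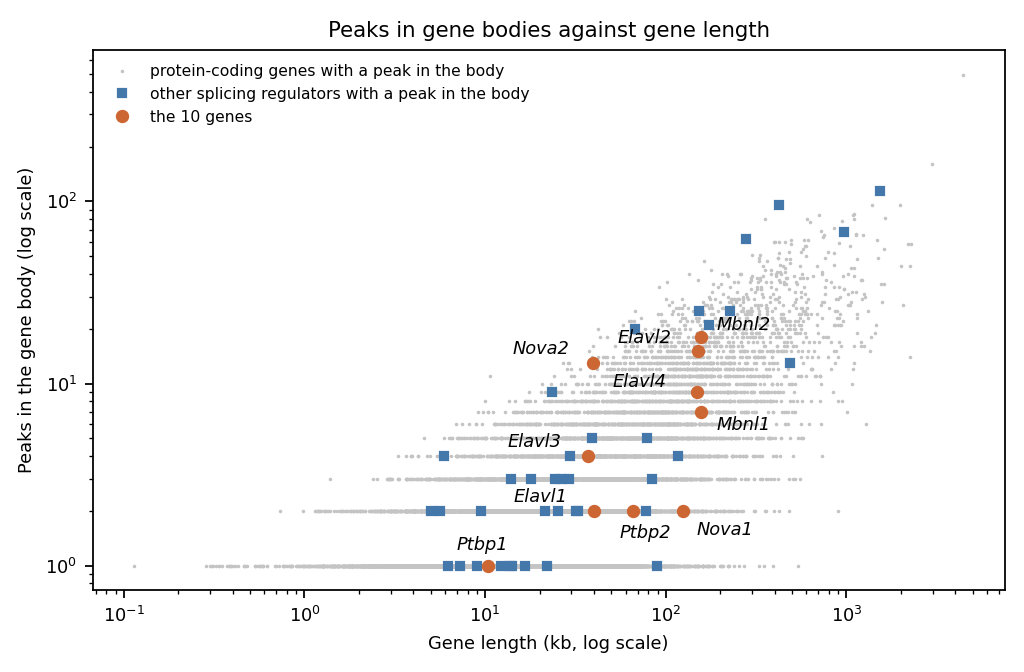
Peaks in the gene body against gene length in kb, both on log scales, for protein-coding genes with at least 1 such peak (grey), other splicing regulators with at least 1 (blue squares) and the 10 genes (orange circles). Nova2, with 13 peaks in 39.4 kb, lies near the upper edge of genes of its length, and Nova1, with 2 peaks in 124.4 kb, near the lower edge.

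The positions of the 134 peaks were set beside those of the whole list, without a test. Promoters within 3 kb of a TSS held 18 of them (13.4%, Wilson interval 8.67 to 20.2) against 24.6% of all peaks with a symbol. Introns held 57 (42.5%, 34.5 to 51.0) against 38.0%, and distal intergenic DNA held 55 (41.0%, 33.1 to 49.5) against 31.9%. A distance of more than 100 kb from the TSS was found for 37 peaks (27.6%), against 15.2% of all. By gene these were 14 of Nova1, 9 of Elavl2, 9 of Ptbp2, 4 of Mbnl1 and 1 of Mbnl2. Their maximum signal had a median of 106.5 (quartiles 73.75 and 135.5) against 101 (66 and 135), and 13 of the 134 (9.7%) were among the top 10% of peaks. Exactly 67 lay in the gene they were assigned to and 67 outside it, of which 8 were in another annotated gene.

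PARIS has been reported to bind an insulin response sequence, TATTTTT or TATTTTG, which was searched on both strands of 200 bp windows centred where the signal is highest. It was present in 18 of the 134 windows (13.4%, 8.67 to 20.2) and in 54 of the 268 flanking windows 1000 bp to either side (20.1%, 15.8 to 25.4). Over all peaks the shares were 9.95% and 13.6%. None of the 15 windows near a TSS held it, for which the interval reaches 20.4%, against 5.4% of all near windows. Among the 19 RefSeq promoter windows 1 held it, an Elavl4 window without a peak, against 9.23% of all such windows. Both letter strings are rich in A and T, so their frequency moves with base composition. By gene, the windows with a match were 5 of 26 for Elavl2, 3 of 28 for Mbnl2, 3 of 15 for Mbnl1, 3 of 14 for Ptbp2, 2 of 12 for Elavl4, 2 of 11 for Nova2 and 0 of 21 for Nova1. Elavl1 and Elavl3 had 0 of 2 and 0 of 5.

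Over all peaks, those of constant height held 7360 of the 9920 windows with a match. Among the peaks of the 10 genes they held 14 of 18. The other 4 peaks had 5 matches in all, which are given here because they are the matches on peaks with a shaped signal. Capitals mark the match, with 10 bases to each side, and the strand is the one on which the letters read.
Elavl2 intergenic peak, chr4:91711950-91711976, + strand: gagacagagtTATTTTTactttatctc
Elavl4 intron, chr4:110226936-110226962, - strand: gggcatgtacTATTTTTactttgggtg
Mbnl2 intron, chr14:120283611-120283637, - strand: tttccttcggTATTTTGcccagctaca
Mbnl2 intron, chr14:120283649-120283675, + strand: aaattatggcTATTTTGgctcacagtt
Nova2 intron, chr7:18935657-18935683, - strand: gttgttattgTATTTTGttcacttccc
The Mbnl2 peak with 2 matches had a maximum signal of 238, the Elavl2 peak 130, the Elavl4 peak 57 and the Nova2 peak 9, the lowest of the 134. A match of these letters is a description and does not show that PARIS binds there.

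GC content was higher at the peaks than beside them. It was 47.0% ± 10.7 (SD over 134 windows) against 41.9% ± 6.44 in the flanks, with the peak above its flanks in 91 of the 134. Over all peaks the values were 49.0% ± 8.92 and 45.6%, with the peak above its flanks in 64120 of 99707. The 15 windows near a TSS had 62.9% ± 17.1 and a median of 16 CpGs, with a range from 1 to 42, while all near windows had 57.5% ± 10.7 and a median of 6. Away from a TSS the 119 windows had 44.9% ± 7.57, against 47.5% over all such windows. Among genes with 10 or more peaks, Nova2 had the highest mean, 56.8%, and Elavl2 the lowest, 41.6%.

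Of 43 other splicing regulators (Rbfox, Celf, Khdrbs, Srsf, Hnrnp and related genes), 41 had an assigned peak and 37 had one within 1 kb of a TSS (86.0%), set against the 41.6% of all protein-coding genes given above. Without constant-height peaks 33 had one. Their median was 4 assigned peaks. Among the paralogs outside the 10 genes, Ptbp3 had 2, of which 1 was near a TSS with a maximum signal of 128, and Mbnl3, on chromosome X, had 4, of which 1 was near a TSS with a maximum signal of 109. Rbfox1, Rbfox3 and Celf2, which encode neuronal splicing factors, had the most, 133, 101 and 94. These genes span 1526172, 421836 and 969870 bp, and their bodies held 7.47, 22.52 and 7.01 peaks per 100 kb. The highest near peaks were those of Hnrnpll (629), Hnrnpk (549) and Celf5 (490), so the Nova2 peak of 556 lay between the values of Hnrnpll and Hnrnpk. Hnrnpa1 and Tra2a had no assigned peak, although the body of Hnrnpa1 held 1. The list was chosen with earlier results of these data known, and no test was made on it.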

How the data were processed

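Per the labels' protocols, the authors mapped trimmed read pairs with Bowtie2 (mm10), discarded duplicates and reads of low quality, and used SEACR for the peaks, with IgG as the control. Tool versions, SEACR settings and the annotation tool are not given in the sources used here. The deposited values used are the authors' total and maximum signal (coverage) per peak and their distance to the TSS. Depth and scaling are unknown.

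Peaks were taken by the authors' gene symbol, and 99701 of 99782 annotated peaks had one. Gene bodies came from GENCODE M21 and promoter windows from RefSeq, both on GRCm38.p6. All 34 transcripts assigned to the genes were in GENCODE M21. Intervals are Wilson for shares and exact Poisson for densities, at 95%. Counting steps were tested on simulated data. Python 3.11.15, pandas 2.3.3 and scipy 1.17.1 were used.

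All 10 genes are named, each with the peak nearest to a TSS and the highest peak. Of 43 other splicing regulators, those named are Ptbp3, Mbnl3, the 3 with most peaks, the 3 with the highest near peak and those with none. The genes and lists, the 99% threshold and the sequences were chosen with earlier results of these data known. The alternatives were stricter peak sets, merged peaks, other distances, other assignments and wider windows.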

Additional observations from a re-analysis of the deposited data

How the results depend on the processing

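Of 33 alternatives to the 7 summary values, 17 left the value close and 16 moved it. Close means within 1.5 times for a count and within the 95% interval of the reported value for a share (for GC content, the interval of the share over all bases of the windows). Directions against the background of all genes or peaks were not recomputed under each alternative. The 134 assigned peaks became 72 with only peaks above the median maximum signal, 13 with the top 10% by maximum signal, 46 without constant-height peaks, and 76 when assigned by overlap with the gene or its 3 kb upstream (76 too under a stricter overlap). By overlap, Nova1 went from 21 to 2 peaks and Nova2 from 11 to 14. The 9 genes with a peak within 1 kb of a TSS became 4 with the top 10% (Elavl1, Elavl2, Nova2 and Mbnl1) and 5 at the GENCODE 5′ end. The 73 gene-body peaks became 42 above the median maximum signal, 10 in the top 10% and 28 without constant-height peaks. With peaks within 1 kb merged they became 60, a close value, but Nova2 went from 13 to 7. The share of constant height fell from 65.7% to 55.4% among peaks at least 200 bp wide, and by overlap it was 60.5%, below the 63.3% of all peaks and not above it as in the report. The motif share of 13.4% became 28.4% in 400 bp windows and 6.94% above the median maximum signal. The mean GC content of 47.0% became 45.9% in 400 bp windows, 51.8% without constant-height peaks and 48.8% above the median maximum signal. Stricter sets hold fewer peaks and longer windows more bases by construction. The cause of the other shifts was not tested. No paired analysis was possible because each antibody had 1 library. No replicate could be left out for the same reason, and unknown depth means that a gene without a peak cannot be read as a gene without signal.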

Other observations

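Some peaks near the 10 genes carried the symbol of a neighbour and entered no count of assigned peaks. Beyond the 3′ end of Nova2, 3 more peaks were assigned to Nanos2, at chr7:18965666-18965980, chr7:18966382-18966937 and chr7:18970126-18970690, with maximum signals of 121, 145 and 44. Within Elavl2, a peak of 61 bp with a constant height of 84 at chr4:91374607-91374667 was assigned to the microRNA gene Mir6402. Beyond the 3′ end of Elavl1, a peak with a constant height of 107 at chr8:4280628-4280683 was assigned to Timm44, and beyond that of Elavl3, a peak with a constant height of 123 at chr9:22011170-22011263 was assigned to Prkcsh.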
